A study of Arabidopsis thaliana with 2 samples.

Results

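Aquaporins are membrane channels through which water, and in some members small neutral solutes, crosses the membranes of a cell. *Arabidopsis* has 35 of them, and all 35 were looked up by locus among the 33602 genes of the expression table. They fall into 4 subfamilies. The plasma membrane intrinsic proteins (PIPs) sit in the outer membrane of the cell and the tonoplast intrinsic proteins (TIPs) in the membrane of the vacuole, while the NOD26-like intrinsic proteins (NIPs) include carriers of boric acid, and the small basic intrinsic proteins (SIPs) are found in the endoplasmic reticulum. The PIP1 and PIP2 groups differ in that PIP2 proteins make water channels by themselves, whereas PIP1 proteins largely depend on a PIP2 partner to reach the plasma membrane. Members are named here in the hyphenated form of protein databases, so that *PIP2-1* is the gene often written *PIP2;1*.

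The libraries compared Col-0 wild-type plants with the *35S:SsCBF1-11* line, a single transgenic line in the Col-0 background. It carries *SsCBF1*, a C-repeat/DRE binding factor of the nightshade *Solanum lycopersicoides*, under the CaMV35S promoter, which is active in most tissues. Aerial parts of 4-week-old plants grown without stress at 22°C (16 h of light, 8 h of dark) were taken. Material of 20 plants per genotype was pooled before RNA was isolated, and 1 library per genotype was sequenced. No difference below therefore has a replicate check. Every interval and p-value covers counting error only, except where a coefficient of variation between pools is assumed.

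The reads assigned to genes summed to 9120358 in Col-0 against 6669454 in *35S:SsCBF1-11*. A level is given as RPKM (reads per 1000 bases of the listed gene model and per 1000000 reads of the library), as deposited. A ratio is the reads per library total in *35S:SsCBF1-11* over that in Col-0, with its exact (Clopper-Pearson) 95% interval. Each gene with at least 1 read also entered an exact binomial test, two-sided, with the share of all reads that belonged to *35S:SsCBF1-11* (42.2%) as the null value, with Benjamini-Hochberg adjustment over 22319 genes, a test that compares 2 libraries and not the genotypes. A member passed the test at an adjusted p under 0.001, and it was called when its ratio, with 0.5 reads added to each count, also differed by more than 2-fold.

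The feature that the family shares in sequence is a pair of pore loops, each with the residues asparagine, proline and alanine in a row. Read from the coding sequences of the TAIR10.1 assembly, 27 of the 35 members had alanine in both loops, 7 had it in 1 loop and 1 in neither. The coding bases of the loops are shown for the most abundant member (*PIP2-1*), the member with the largest well-counted difference (*TIP1-1*) and the best-counted boric acid channels (*NIP5-1* and *NIP6-1*), with the codons of the 3 residues in capitals.
PIP2-1 loop 1: ggtcacattAACCCAGCGgtgacattt
PIP2-1 loop 2: accggaattAACCCGGCAaggagtttc
TIP1-1 loop 1: ggacacgttAACCCTGCCgtcactttc
TIP1-1 loop 2: gcctccatgAATCCCGCCgtggctttc
NIP5-1 loop 1: gctcacctaAACCCATCActgaccata
NIP5-1 loop 2: ggatctatgAATCCTGTGagaactcta
NIP6-1 loop 1: gcacatctcAATCCGGCTgtaaccatt
NIP6-1 loop 2: gcttcgatgAACCCTGTAagaacactg
In these sequences *NIP5-1* has serine in its first loop and valine in its second in place of alanine, and *NIP6-1* has valine in its second loop.

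Aquaporins were among the abundant transcripts of the shoot in both libraries. Together the members took 0.923% of the reads in Col-0 (84215 reads) and 0.808% in *35S:SsCBF1-11* (53881 reads), a ratio of 0.875 (interval 0.866 to 0.884). In bulk tissue, fewer cells of a type and less RNA per cell cannot be told apart. The family was uneven. In all, 14 members had at least 1000 reads in both libraries together, 23 had at least 20, and 5 had none. Of the 26712 nuclear protein-coding genes, *PIP2-1* (AT3G53420, chromosome 3, 19803473 to 19805730) was at place 30 by RPKM in Col-0 and at place 37 in *35S:SsCBF1-11*.

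**Figure D1:**
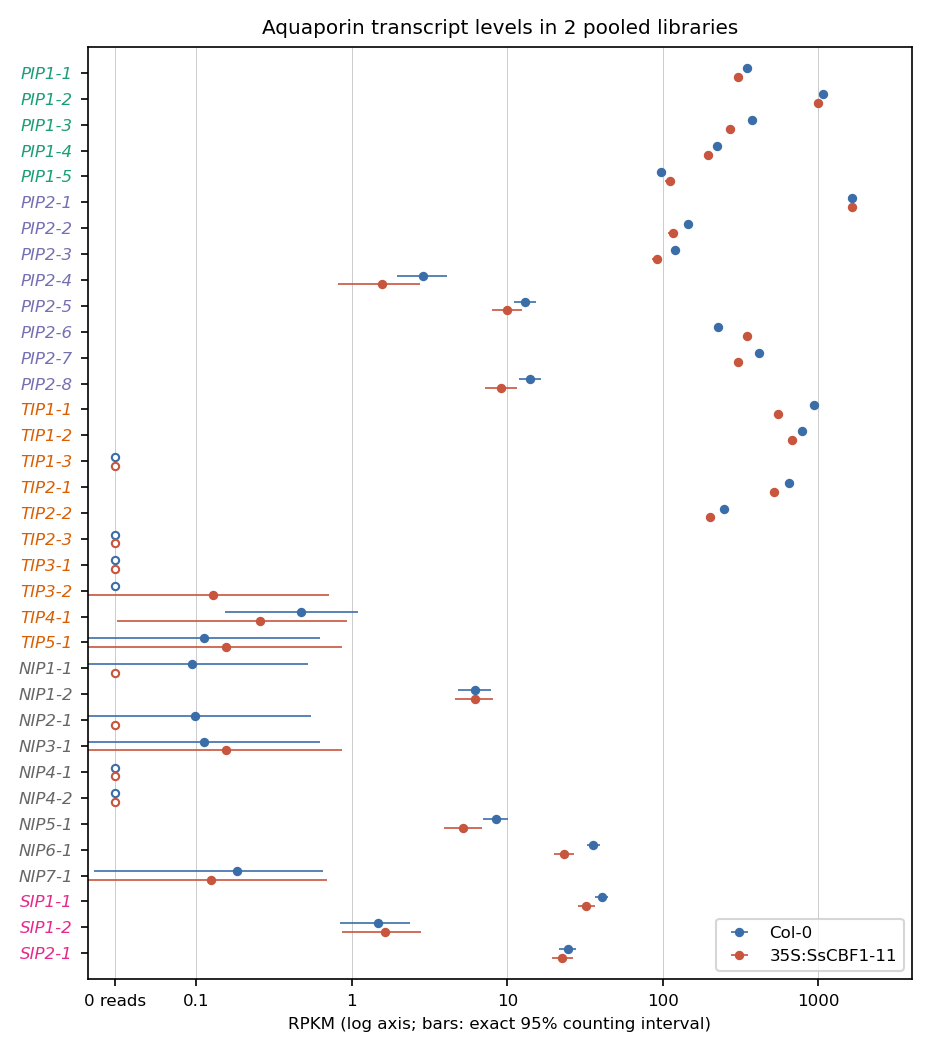
Level of each aquaporin gene in RPKM (log axis) in the Col-0 (blue) and 35S:SsCBF1-11 (red) libraries, with its exact 95% counting interval. The interval runs past the left edge where a library had 1 read. Open circles stand for 0 reads, and name colours mark PIP1, PIP2, TIP, NIP and SIP genes. The 14 most abundant members, all PIPs and TIPs, lie between 91.6 and 1641 RPKM.

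By summed RPKM, the PIPs made up 63.2% of the family in Col-0 against 68.3% in *35S:SsCBF1-11*, and the TIPs 35.2% and 30.3%. NIPs and SIPs added little, with 50.9 and 34.8 RPKM for all NIPs and 66.3 and 56.5 RPKM for all SIPs. The summed reads differed most for the well-counted TIPs, with 26594 in Col-0 against 14569 in *35S:SsCBF1-11*, a ratio of 0.749 (0.734 to 0.765). This sum holds *TIP1-1* at a ratio of 0.581, while *TIP2-1*, *TIP2-2* and *TIP1-2* stood at 0.802, 0.8095 and 0.871. For the PIP1 genes the sums were 25570 and 16536 reads (ratio 0.884, 0.867 to 0.902). For the PIP2 genes they were 30795 and 22066 reads, a ratio of 0.980 (0.963 to 0.997) that lay above 1 with edgeR's TMM (1.03), DESeq2's size factors (1.03) or the upper quartile (1.01). The NIP sums were small, 588 and 293 reads (0.681, 0.590 to 0.785), as were those of the SIPs, 668 and 417 reads (0.854, 0.754 to 0.966).

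**Figure D2:**
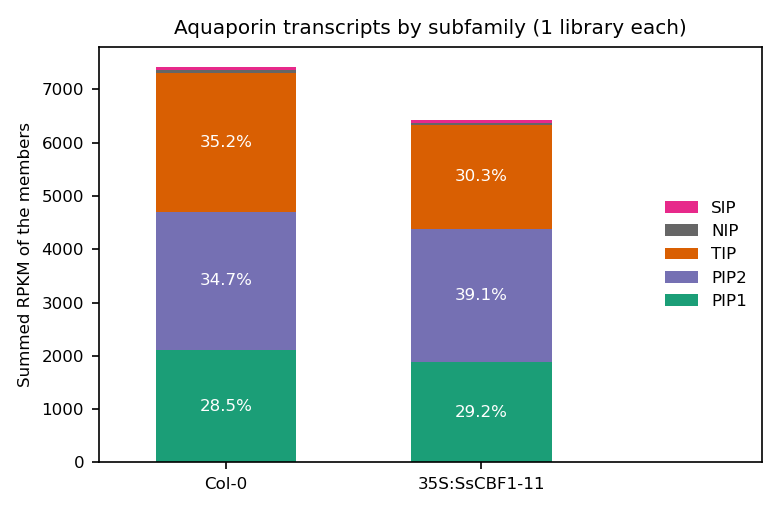
Summed RPKM of the aquaporin genes in each library, stacked by subfamily, with the share of the family's RPKM printed for PIP1, PIP2 and TIP. The TIP part is 35.2% in Col-0 against 30.3% in 35S:SsCBF1-11, the PIP2 part 34.7% against 39.1%.

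No aquaporin was called. The 2-fold call took 0.838% of all tested genes as lower and 0.533% as higher, and it took 0 of the 30 members with reads in either direction. At any fold, 12 members passed the test as lower in *35S:SsCBF1-11* and 1 as higher, and 17 with reads did not pass. Over all genes tested, 3.21% passed as lower and 2.45% as higher. Passing depends on depth. Among the 2021 genes with at least 1000 reads, 14.0% passed as lower and 16.2% as higher. Of the 14 aquaporins above that floor, 11 passed as lower and 1 as higher. Depth above the floor was not matched, and these aquaporins had from 1840 to 35553 reads. Their median log2 ratio was -0.25 (12 below 0, 2 above), and that of all 2021 genes was 0.00. Over the 23 members with at least 20 reads the median log2 ratio was -0.32, with 20 below 0 and 3 above, beside -0.07 for all 16998 such genes, of which 58.4% were below 0. A fold above 1.5 at this depth was seen for 5 members as lower and 1 as higher, with a background of 11.4% and 4.69%. The members were picked as a family and share sequence and tissue, so these counts describe 2 libraries. They also need the assumption that pools of one genotype would differ by counting alone. If a coefficient of variation of 0.1 between pools is assumed instead, edgeR's exact test passes 0 members (82 genes of the table lower and 64 higher), with *TIP1-1* nearest at an adjusted p of 0.0137.

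**Figure D3:**
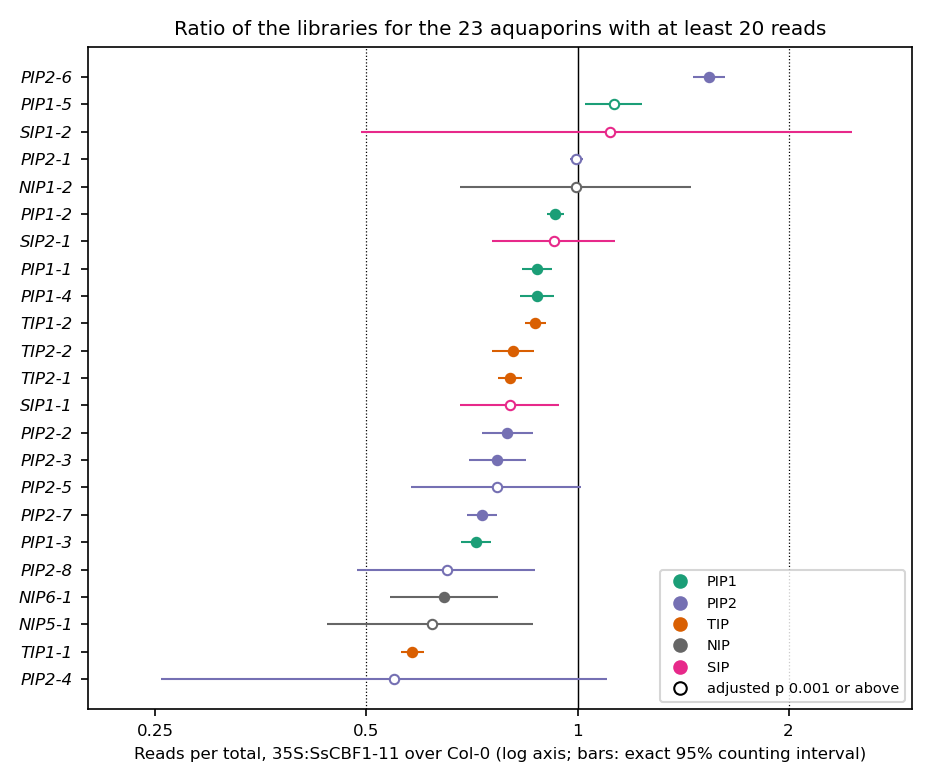
Ratio of reads per total, 35S:SsCBF1-11 over Col-0 (log axis), for the 23 aquaporins with at least 20 reads, ordered by ratio and coloured by subfamily, with exact 95% counting intervals. Filled points passed the exact binomial test at an adjusted p under 0.001, and dotted lines mark a 2-fold difference. PIP2-6 stands at 1.54 and TIP1-1 at 0.581, and no filled point lies outside the dotted lines.

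The PIP1 genes encode the partners of the PIP2 channels, and some are also linked to CO2 entry into leaf cells. *PIP1-2* (AT2G45960, chromosome 2, 18910081 to 18911982), the most abundant of them, had 12661 reads in Col-0 against 8605 in *35S:SsCBF1-11*, at 1069 and 993 RPKM. It was 1.08-fold lower (1.05 to 1.11, adjusted p = 4.75e-06, exact binomial test), and it did not pass under TMM, DESeq2 or upper quartile scaling. *PIP1-3* (AT1G01620, chromosome 1, 225665 to 227543) differed more, with 4487 and 2352 reads, 1.40-fold lower (1.33 to 1.47, adjusted p = 6.19e-38, exact binomial test). The levels of *PIP1-1* (AT3G61430), 350 and 307 RPKM from 4039 and 2588 reads, gave a 1.14-fold lower value (1.09 to 1.20, adjusted p = 4.48e-06, exact binomial test). *PIP1-4* (AT4G00430) had 3374 and 2160 reads, also 1.14-fold lower (1.08 to 1.21, adjusted p = 3.25e-05, exact binomial test). Like *PIP1-2*, these last 2 genes passed only with scalings by a total. *PIP1-5* (AT4G23400) stood on the other side of 1, with 1009 and 831 reads (98.0 and 110 RPKM, ratio 1.13, 1.03 to 1.24), and did not pass (adjusted p = 0.0841, exact binomial test).

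Among the PIP2 genes, which encode the main water channels of the plasma membrane, the most abundant one had a ratio near 1 and a less abundant one was higher. *PIP2-1* had 20566 reads in Col-0 against 14987 in *35S:SsCBF1-11*, at 1641 and 1635 RPKM. Its ratio was 0.997 (0.976 to 1.02, adjusted p = 0.969, exact binomial test) and lay above 1 with TMM, DESeq2 and upper quartile scaling. *PIP2-6* (AT2G39010, chromosome 2, 16291280 to 16294101) had 2567 reads in Col-0 and 2891 in the smaller *35S:SsCBF1-11* library, at 226 and 348 RPKM. It was the only member to pass as higher with scaling by the total, 1.54-fold (1.46 to 1.62, adjusted p = 1.09e-54, exact binomial test). *PIP2-7* (AT4G35100, chromosome 4, 16708361 to 16710407) moved the other way, with 4562 and 2435 reads, 1.37-fold lower (1.304 to 1.44, adjusted p = 7.87e-35, exact binomial test). Within a library, where no scaling enters, *PIP2-6* stood at 0.545 times the level per length of *PIP2-7* in Col-0 and at 1.15 times in *35S:SsCBF1-11*. That is a 2.11-fold shift (1.96 to 2.27, counting interval on the log scale), for a pair picked after its values were seen.

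*PIP2-2* (AT2G37170) and *PIP2-3* (AT2G37180, also known as *RD28* from its response to desiccation) are neighbours on chromosome 2, at 15613368 to 15615022 and 15617635 to 15619155, on opposite strands. *PIP2-2* had 1528 and 887 reads, 1.26-fold lower (1.16 to 1.37, adjusted p = 1.3e-06, exact binomial test). *PIP2-3* had 1247 and 701 reads, 1.301-fold lower (1.185 to 1.429, adjusted p = 6.81e-07, exact binomial test). Their coding sequences differ at 45 of 858 bases, and 18.8% of the 100-base windows of each occur unchanged in the other, with a longest shared run of 242 bases. How reads that match both were counted is not given in the sources used here, so the pair is uncertain gene by gene. Summed, it had 2775 and 1588 reads, 1.28-fold lower. No other of the 595 pairs of members shared a coding window of that length. Even so, 11 pairs had proteins with at least 90% of residues in common, counted over the longer protein. The stretch where the copies differ most, coding bases 423 to 452, is shown with the differing bases in capitals (chr2:15614219-15614248, minus strand, and chr2:15618322-15618351, plus strand, TAIR10.1).
PIP2-2: CaaAgcCtttcaaagctctTactatgAtCG
PIP2-3: GaaGgcAtttcaaagctctCactatgTtAA
The stretch holds 7 of the differing bases.

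The other PIP2 genes were scarce in these shoots. *PIP2-5* had 146 and 82 reads (13.0 and 10.0 RPKM) and *PIP2-8* 149 and 71 (14.1 and 9.18 RPKM), with ratios of 0.768 (0.579 to 1.01) and 0.652 (0.484 to 0.870). Neither passed (adjusted p = 0.267 and 0.0261, exact binomial test). *PIP2-4*, a gene known mainly from roots, had 30 and 12 reads (ratio 0.547, 0.255 to 1.10). *PIP2-8* is a close copy of *PIP2-7* (91.8% of residues shared), and its level was far lower, *PIP2-7* standing 29.4 times above it per length in Col-0 and 33.0 times in *35S:SsCBF1-11*.

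TIP1 and TIP2 channels let water, and in some members small neutral solutes, cross the membrane of the vacuole. All 4 TIP genes with at least 1000 reads passed as lower, beside 14.0% of all genes at that depth. *TIP1-1* (AT2G36830, gamma-TIP, chromosome 2, 15445294 to 15446621) had 9091 reads in Col-0 against 3863 in *35S:SsCBF1-11*, at 941 and 547 RPKM. It was 1.72-fold lower (1.66 to 1.79, adjusted p = 5.83e-184, exact binomial test), the largest difference of a member with at least 1000 reads. Its closest relative *TIP1-2* (AT3G26520, chromosome 3, 9722443 to 9723904) had 8546 and 5442 reads, 1.15-fold lower (1.11 to 1.19, adjusted p = 9.37e-14, exact binomial test). Both genes are used throughout the shoot, and they changed places. The level per length of *TIP1-1* was 1.21 times that of *TIP1-2* in Col-0 and 0.805 times in *35S:SsCBF1-11*, a shift of 0.667 (0.634 to 0.702, counting interval on the log scale) that depends on no scaling. This pair, too, was picked after its values were seen.

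The TIP2 genes differed by similar amounts. *TIP2-1* (AT3G16240, delta-TIP, chromosome 3, 5505360 to 5507050) had 6743 and 3953 reads, 1.247-fold lower (1.199 to 1.298, adjusted p = 1.25e-26, exact binomial test). It overlaps the gene *PnsB3* (352 and 287 reads) on the opposite strand by 120 bases and an annotated lncRNA by 445 bases, and the strand setting of the counts is not given in the sources used here. *TIP2-2* (AT4G17340) had 2208 and 1307 reads, 1.23-fold lower (1.15 to 1.32, adjusted p = 4.83e-08, exact binomial test), and the ratio of *TIP2-1* to *TIP2-2* was 2.61 in Col-0 against 2.58 in *35S:SsCBF1-11*. The close copy *TIP2-3* (92.0% of residues shared with *TIP2-2*), a gene of roots, had 0 reads in both libraries. The other TIP genes are known from seeds, pollen or roots. *TIP1-3* and *TIP3-1* had 0 reads in both, *TIP3-2* 0 and 1, *TIP5-1* 1 and 1, and *TIP4-1* 5 and 2. A count of 0 allows up to 3 reads, which for *TIP1-3* is 0.433 RPKM in Col-0 and 0.593 RPKM in *35S:SsCBF1-11*, and for *TIP3-1* 0.279 and 0.382 RPKM.

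Of the NIP genes, the boric acid channel *NIP6-1* (AT1G80760, chromosome 1, 30350539 to 30352208), which in *Arabidopsis* shoots directs boron to young leaves, was the most abundant. It had 396 reads in Col-0 against 187 in *35S:SsCBF1-11* (35.8 and 23.1 RPKM) and was 1.549-fold lower (1.298 to 1.853, adjusted p = 1.54e-05, exact binomial test). It overlaps AT1G80750 (215 and 135 reads) on the opposite strand by 26 bases. *NIP5-1* (AT4G10380, chromosome 4, 6431161 to 6435396), the boric acid channel best known from root uptake, had 117 and 53 reads, a ratio of 0.619 (0.439 to 0.864) that did not pass (adjusted p = 0.0362, exact binomial test). *NIP1-2* had 70 and 51 reads (6.195 and 6.172 RPKM, ratio 0.996, 0.681 to 1.45). The remaining NIP genes had at most 2 reads in a library. *NIP7-1*, known from the tapetum and pollen, had 2 and 1, *NIP3-1* had 1 and 1, *NIP1-1* and *NIP2-1* had 1 and 0 each, and the adjacent pollen genes *NIP4-1* and *NIP4-2* had 0 in both.

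None of the 3 SIP genes, whose products are channels of the endoplasmic reticulum, passed the test. *SIP1-1* (AT3G04090) had 405 and 237 reads (40.4 and 32.3 RPKM, 1.25-fold lower value, 1.06 to 1.47, adjusted p = 0.0547, exact binomial test). *SIP2-1* (AT3G56950) had 247 and 167 reads (ratio 0.925, 0.755 to 1.13) and overlaps *CRD1*, a chlorophyll synthesis gene with 18079 and 14944 reads on the other strand, by 147 bases. *SIP1-2* (AT5G18290) had 16 and 13 reads.

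**Figure D4:**
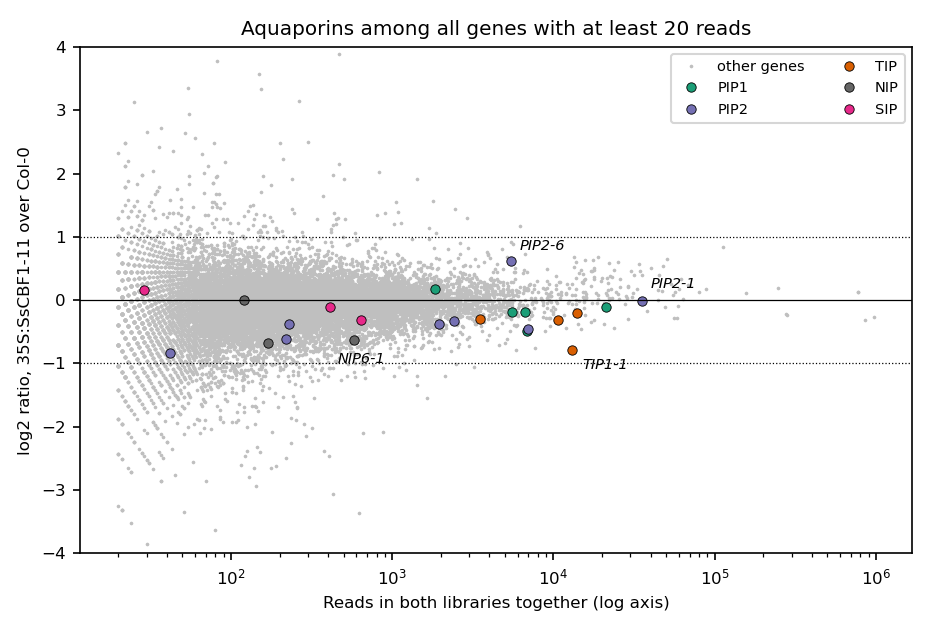
Log2 ratio of 35S:SsCBF1-11 over Col-0 against the reads in both libraries together (log axis) for the 16998 genes with at least 20 reads (grey), with aquaporins coloured by subfamily and dotted lines at a 2-fold difference. The vertical axis leaves out 26 genes beyond a log2 ratio of 4 in either direction. TIP1-1 at -0.78 and PIP2-6 at 0.62 are the lowest and highest aquaporins with at least 1000 reads.

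The order of levels differed in part between the libraries. In Col-0 it ran *PIP2-1*, *PIP1-2*, *TIP1-1*, *TIP1-2*, *TIP2-1*, *PIP2-7*, *PIP1-3*, *PIP1-1*, *TIP2-2*, *PIP2-6*, *PIP1-4*, *PIP2-2*, *PIP2-3* and *PIP1-5*. Only *PIP2-6* and *PIP1-4* had overlapping counting intervals among neighbours in that order. In *35S:SsCBF1-11* it ran *PIP2-1*, *PIP1-2*, *TIP1-2*, *TIP1-1*, *TIP2-1*, *PIP2-6*, *PIP1-1*, *PIP2-7*, *PIP1-3*, *TIP2-2*, *PIP1-4*, *PIP2-2*, *PIP1-5* and *PIP2-3*. There *PIP2-6* stood at place 6 instead of place 10, *TIP1-1* and *TIP1-2* were exchanged at places 3 and 4, and *PIP1-5* stood above *PIP2-3*. *PIP2-7* stood at place 8 instead of 6 and *PIP1-3* at place 9 instead of 7, both below *PIP1-1*. In this order 4 neighbouring pairs overlapped. These were *TIP1-1* with *TIP2-1* (547 and 518 RPKM), *PIP1-1* with *PIP2-7* (307 and 302 RPKM), *TIP2-2* with *PIP1-4* (200 and 196 RPKM), and *PIP2-2* with *PIP1-5* (116 and 110 RPKM).

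CBF proteins bind the C-repeat, whose core is CCGAC. On either strand of the 1000 bases before the gene start in TAIR10.1, this core was found for 14 of 35 aquaporins (40.0%, 19 cores) and for 37.4% of 27443 protein-coding genes. The cores of members with ratios above, below and near 1 are shown with the core in capitals, each read on its own strand of TAIR10.1, since they let the upstream sequence be set beside the expression values.
PIP2-6: gcaaattggaCCGACctttagtcga
TIP1-1: cgaagcggaaCCGACcaatctacgt
PIP2-1: ttctttaggaCCGACccaatatact
PIP2-2: ttcatttggaCCGACcctaatatac
The one before *PIP2-6* (chr2:16290718-16290742, minus strand) lies 548 bases from the gene start, and the one before *TIP1-1* (chr2:15445233-15445257, minus strand) 47 bases. Those of *PIP2-1* (chr3:19806347-19806371, plus strand) and *PIP2-2* (chr2:15615564-15615588, plus strand) lie 627 and 552 bases away. *TIP2-1*, *PIP1-1* and *PIP1-3* had 2 cores each and *PIP2-5* had 3. Of the 12 members that passed as lower, 6 had a core and 6 had none in this window, *PIP1-2*, *PIP2-7* and *NIP6-1* among the latter. A match of these letters is a description and shows no binding.

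Other genes that act on or beside aquaporins did not form a uniform picture. Of 10 genes for aquaporin traffic and control, 1 passed as lower and none as higher, beside 3.21% and 2.45% of all genes tested. Their median log2 ratio was -0.07 over the 8 with at least 20 reads, the same as over all genes. The 1 that passed was *RMA2*, a membrane-anchored ubiquitin ligase, with 512 and 211 reads (1.77-fold lower, 1.51 to 2.09, adjusted p = 3.01e-11, exact binomial test). The syntaxin gene *SYP121*, which helps to deliver PIP2 channels to the plasma membrane, had 418 and 313 reads (ratio 1.02, 0.882 to 1.19). Of 12 proton pump genes of the vacuole and plasma membrane, 3 passed as higher and 1 as lower, with a median of 0.03. Among all genes with at least 1000 reads, 16.2% passed as higher and 14.0% as lower. The vacuolar pyrophosphatase gene *AVP1*, whose product shares the vacuolar membrane with the TIPs, had 7531 and 6200 reads (1.13-fold higher, 1.09 to 1.16, adjusted p = 3.10e-10, exact binomial test). The ATPase subunit genes *VHA-A* (ratio 1.14, 1.08 to 1.21) and *VHA-C* (1.23, 1.12 to 1.34) also passed as higher, and the plasma membrane pump gene *AHA1* as lower (1.21-fold, 1.16 to 1.27). Of 4 boron and urea transporter genes, *BOR1*, a borate exporter that loads the xylem, passed as lower, with 300 and 142 reads (1.55-fold, 1.26 to 1.90, adjusted p = 2.83e-04, exact binomial test). The urea transporter gene *DUR3* had 469 and 320 reads (ratio 0.933, 0.807 to 1.08).

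Marker genes of other organs and cell types were read beside the members. The labelled tissue, aerial parts, showed in *RBCS1A* of the leaf mesophyll (134636 and 112764 reads). All 5 mesophyll markers passed as higher in *35S:SsCBF1-11*, with 33250 and 41620 RPM (reads per 1000000 of the library) in sum. Among all genes with at least 1000 reads, 16.2% passed as higher. Root markers summed to 3 and 1 reads, seed markers to 2 and 0, and the 5 mature pollen markers to 0 and 1. The 2-fold call took 0.838% of all tested genes as lower. Of 5 tapetum and pollen coat markers, 4 were called lower, from 35.9 to 0.450 RPM in sum, and 4 of the 5 were at 0 in *35S:SsCBF1-11*. Of 6 xylem and fibre wall markers, 3 were called lower (*FLA11*, *FLA12* and *LAC4*), from 54.9 to 21.9 RPM in sum, and none was at 0. Phloem markers (214 and 238 RPM) and guard cell markers (25.2 and 27.0) had no member that passed. The paper describes late flowering of this line and shows it in plants of 4 weeks, the age sampled here. Genotype and stage of development therefore cannot be told apart in these pools. The marker levels differed between the same 2 libraries as the aquaporin ratios, and their part in those ratios was not tested.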

How the data were processed

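RNA of aerial parts was sequenced by the authors on an Illumina instrument, 1 library per genotype from 20 pooled plants. The authors deposited 1 table of 33602 gene models with whole-number read counts and RPKM per library. The deposited RPKM equals reads over the listed length and the library's total of assigned reads (relative tolerance 1e-06). The submitters' processing notes name the build TAIR10 and CASAVA 1.7, while an aligner, a rule for shared reads and the use of strand were not given in the sources used here, a gap that touches close copies and overlapping genes. The authors' fold, log2 and q-value columns and their pathway and Gene Ontology sheets hold the authors' own comparison and were not used.

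Members were matched by locus with the model suffix dropped, and all 35 were found. The members and lists were chosen with earlier results of these data known. Counts were compared by exact binomial tests over 22319 genes as described in the results, since with 1 library per group no spread can be estimated, and intervals and the floor of 3 reads for a count of 0 cover counting error only. Every member was named, with full values for those at an adjusted p under 0.001, the 6 with the highest mean RPKM and close copies. Listed genes were named where their adjusted p was under 0.001, and *SYP121*, *DUR3* and markers were named after their values were seen. Gene positions, coding sequences and upstream bases come from the RefSeq annotation of TAIR10.1 (35 loci matched, 34 of them with the family name). Protein identity comes from global alignments of translated sequences and was counted over the longer protein. The listed model of *PIP1-2* encodes 301 residues against 286 or 287 in the other PIP1 proteins, and its identity to them was 80.7% to 85.0%. The comparison was tested on simulated counts. Alternatives were edgeR's TMM and upper quartile factors, DESeq2's size factors, totals without the 10 most abundant genes or of nuclear protein-coding genes, a minimum of 10 reads, a pseudocount of 1, other thresholds, summed copies (at least 95% of residues shared) and the exact test of edgeR, given a coefficient of variation of 0.1, 0.2 or 0.4. Software was R 4.3.3 (DESeq2 1.42.0, edgeR 4.0.16) and Python 3.11.15 (scipy 1.17.1, numpy 2.4.6, matplotlib 3.10.9, pandas 2.3.3).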

Additional observations from a re-analysis of the deposited data

How the results depend on the processing

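The number of called aquaporins stayed at 0 in both directions under every alternative of scaling, filter, pseudocount, assumed spread and summed copies, and with an adjusted p under 0.05. These alternatives could hardly have moved it. The members with at least 20 reads had log2 ratios from -0.84 to 0.62, inside the 2-fold threshold. The number became 1 higher and 2 lower with a fold above 1.5, and 1 higher and 12 lower with no threshold on the fold. Without a fold threshold, alternatives chosen after seeing the data gave 9 lower members with TMM, DESeq2 or upper quartile scaling and 2 higher members with DESeq2's size factors. The shares of all genes that passed were not computed for these scalings, and those in the results hold for scaling by the total. Summing copies merged 5 members into 2 sums that both passed, which alone brought the lower count to 9. Given a coefficient of variation of 0.1, 0.2 or 0.4 between pools, edgeR's exact test passed 0 members in either direction. Over the whole table it passed 82 genes as lower and 64 as higher at 0.1, 21 and 18 at 0.2, and 0 and 2 at 0.4. At 0.2 and 0.4 a count of 0 members was thus close to fixed in advance. By the binomial test, 15 members were lower and 2 higher at an unadjusted p under 0.05. No share of all genes was computed at that threshold, so these counts cannot be set against a background. The ratio of summed reads was 0.917 with TMM, 0.920 with DESeq2's size factors, 0.904 with the upper quartile, 0.861 without the 10 most abundant genes, 0.853 for nuclear protein-coding genes and 0.836 without *PIP2-1*. Other scalings shifted all log2 ratios by between -0.04 and 0.07. Of 115 member values under 5 scalings, 100 kept their direction and side of the threshold, 9 (*PIP1-1*, *PIP1-2* and *PIP1-4*) no longer passed, and 6 changed sign. The log2 ratio of *PIP2-1* became 0.062 with TMM, 0.068 with DESeq2 (adjusted p = 2.57e-04, exact binomial test) and 0.042 with the upper quartile, and that of *NIP1-2* 0.066, 0.071 and 0.045. No paired analysis was possible because each genotype has 1 library, and no replicate could be left out.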
